A study of Mus musculus with 32 samples.

Results

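The *Kmt2a* factor in the amygdala compared 8 libraries from mice with a single functional *Kmt2a* allele against 8 libraries from mice with both alleles, in a factorial model that also held a term for *Kdm5c*. The members were chosen by their labels, without reference to any measured value, and were 16 of the 32 libraries of the series. The 1-copy libraries came from 4 *Kmt2a*-HET and 4 *Kdm5c*-KO; *Kmt2a*-HET (DM) mice, and the 2-copy libraries from 4 WT and 4 *Kdm5c*-KO mice. All were adult F1 males of a cross between a 129S1/SvImJ *Kmt2a* heterozygous father and a C57BL/6J *Kdm5c* heterozygous mother, and each amygdala library had a hippocampal library of the same mouse. *Kdm5c*-KO males carried no functional copy of this X-linked gene. Both mutant alleles were constitutive and thus present in every cell of a mouse, and the *Kmt2a* allele lacked a segment that was floxed in the parent line.

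KMT2A (also called MLL1) is a methyltransferase that writes methylation on lysine 4 of histone H3, a mark of active promoters and enhancers, within a complex with WDR5, RBBP5, ASH2L and DPY30. KDM5C removes the same mark. Heterozygous loss of the human *KMT2A* gene causes Wiedemann-Steiner syndrome, a disorder of intellectual development, and loss of *KDM5C* causes an X-linked form. The comparison asked which transcripts of the adult amygdala depended on the dose of *Kmt2a*, averaged over mice with and without *Kdm5c*.

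The amygdala libraries held 19215489 to 26033593 counts assigned to genes, and 21731 to 23216 genes had at least 1 count. The ERCC spike-in share was 0.12% to 0.511% of counts in the 2-copy libraries and 0.166% to 0.343% in the 1-copy libraries. In a principal component analysis of 12127 genes, WT1 stood apart on the first component (30% of the variance, a score of -51.5 against -14.9 to 24.5 in the other 15 libraries). Counts of 3, the floor used for genes near 0, corresponded to 0.115 to 0.156 CPM (counts scaled to the library total), and such limits cover counting error only. Nothing in the labels places the mice in litters or dissection days.

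Transcript counts over the whole *Kmt2a* locus (ENSMUSG00000002028, chromosome 9, 44803355 to 44881296, minus strand, mm10) overlapped fully between the groups. The normalised count was 2163 at the lowest, 4615 at the median and 5639 at the highest in the 2-copy libraries, and 3008, 4346 and 5371 in the 1-copy libraries. The log2 fold change (1-copy over 2-copy) was -0.04 with a standard error of 0.165 (DESeq2, adjusted *p* = 1). The deleted segment is a small part of the transcript, so a count over the whole gene does not check the genotype labels. The main transcript, ENSMUST00000002095.10, had 3691 ± 1030 (SD, n = 8) normalised counts with 2 copies and 3692 ± 502 (n = 8) with 1 copy. *Kdm5c* (ENSMUSG00000025332) had 1460 ± 281 and 1424 ± 170 counts, a log2 fold change of -0.03 for the *Kmt2a* term (DESeq2, adjusted *p* = 1).

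No gene passed the test for the *Kmt2a* factor. DESeq2 called 0 of 30330 genes tested (0% called) at an adjusted *p* under 0.1, and the smallest adjusted *p* was 0.239. An unadjusted *p* under 0.05 was reached by 934 genes, 559 higher (1.84% of genes tested) and 375 lower (1.24%) in the 1-copy libraries. The quasi-likelihood test of edgeR called 0 of 17032 genes, with 657 at an unadjusted *p* under 0.05. The *Kdm5c* term of the same fit called 342 of the same 30330 genes (1.13% called), 283 higher and 59 lower, with the same number of libraries on each side. Over 12126 genes with a mean count of at least 100, the median standard error was 0.0966 for the *Kmt2a* term and 0.0966 for the *Kdm5c* term.

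**Figure D1:**
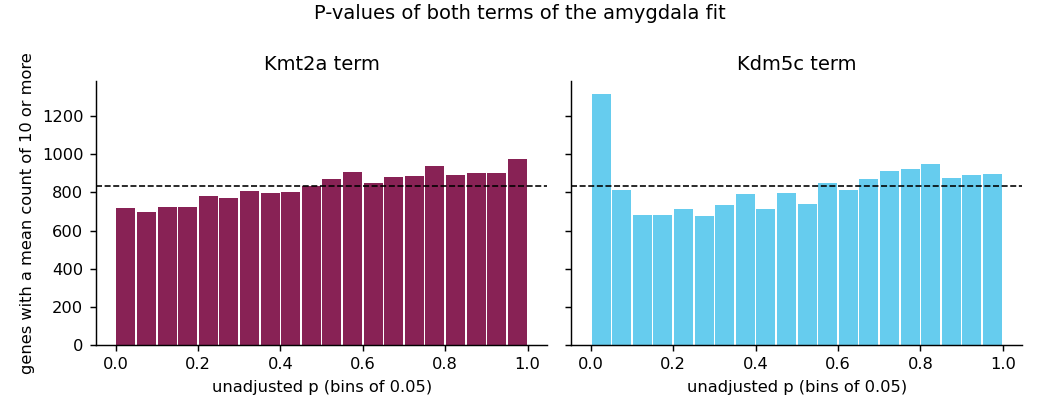
Number of genes (mean normalised count of at least 10) in each bin of unadjusted p for the Kmt2a term (left) and the Kdm5c term (right) of the same amygdala fit of 16 libraries; the dashed line is the height that equal bins would have. The first bin, p under 0.05, holds 719 genes for Kmt2a and 1319 for Kdm5c.

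For most well-expressed genes the intervals bounded the *Kmt2a* dose effect averaged over mice with and without *Kdm5c*. They do not bound the effect within mice with *Kdm5c* or within mice without it, since opposite effects can cancel in the average. The 95% confidence interval lay within a log2 fold change of 1 in either direction for 12040 of the 12126 genes (99.3%), and within 0.5, a 1.41-fold change, for 11272 (93%). Only 45 of them had an estimate over 0.5 in size. The median log2 fold change over these genes was -0.01. Changes smaller than the intervals were not detectable with 8 libraries a side. The labels name the animals separately but give no extraction batches, and *p*-values measure the spread between mice.

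The 12 genes with the smallest *p* on each side are named as the leading genes although none was called. Among the higher ones, 3 genes of all 30330 had all 8 1-copy libraries above all 8 2-copy libraries (0.00989%), and 0 genes had all 8 below (0%). These were *Npr1*, *Timp3* and *Hrc*, of which *Hrc* was not among the 12 and was picked out after its values were seen.

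*Npr1* encodes the guanylyl cyclase receptor for atrial natriuretic peptide. Its normalised counts were 93, 124, 107 and 126 in WT and 120, 118, 97.5 and 113 in *Kdm5c*-KO. They were 144, 128, 144 and 151 in *Kmt2a*-HET and 224, 166, 152 and 165 in DM. The lowest 1-copy library, at 127.6, stood just above the highest 2-copy library, at 126.2. The means were 112.3 ± 12.2 (n = 8) and 159.2 ± 29.1 (n = 8), a log2 fold change of 0.50 with a standard error of 0.116 (1.41-fold, 95% interval 1.21 to 1.65, DESeq2, adjusted *p* = 0.276). The gene lies on chromosome 3 at 90450591 to 90465866.

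*Timp3*, an inhibitor of matrix metalloproteinases (chromosome 10, 86300372 to 86349506), lies inside an intron of *Syn3* on the other strand. It had 2294, 3056, 3167 and 2884 counts in WT and 3138, 2836, 3074 and 2577 in *Kdm5c*-KO. It had 3382, 3617, 3223 and 3530 in *Kmt2a*-HET and 3466, 3521, 3641 and 3315 in DM. The separation was narrow but complete, with the 1-copy minimum of 3223 over the 2-copy maximum of 3167. The log2 fold change was 0.27 (1.2-fold, 95% interval 1.1 to 1.32, DESeq2, adjusted *p* = 0.85). *Hrc*, a calcium-binding protein gene known from muscle, was low, with 3.17 to 7.12 counts in the 2-copy and 9.69 to 13.6 in the 1-copy libraries (DESeq2, log2 fold change 1.19, adjusted *p* = 1).

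The remaining higher genes differed in their known roles, and whether their levels share a tissue source was not tested. *Lepr*, the leptin receptor, had a 2-copy range of 27.5 to 69.8 with a median of 36.3, and a 1-copy range of 48.2 to 81.7 with a median of 67.8. The groups overlapped, since WT4 lay within the range of DM (DESeq2, log2 fold change 0.71, adjusted *p* = 1). *Dcdc5*, an annotated unitary pseudogene of the doublecortin family, had the smallest *p* of all genes (DESeq2, adjusted *p* = 0.239) but only 7.7 ± 3.03 counts with 2 copies and 18.8 ± 3.02 with 1 copy. *Acacb*, the mitochondrial acetyl-CoA carboxylase that restrains fatty acid oxidation, averaged 256.9 ± 53.4 and 340 ± 57 counts (log2 fold change 0.40). *Kank2*, a cytoskeletal adaptor, averaged 349.2 ± 32.6 and 423.9 ± 37 (log2 fold change 0.28), with 7 of the 8 1-copy libraries above every 2-copy library. *Pmp22*, a myelin protein gene mutated in hereditary neuropathy, averaged 312.4 ± 54 and 411.3 ± 71.7 (log2 fold change 0.39), and *Hydin*, a component of motile cilia, 87.8 ± 22.7 and 132.2 ± 32.5 (log2 fold change 0.60). *Gm9780* and *RF01953* were under 50 counts in every library.

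*2600006K01Rik*, an antisense transcript at *Cercam*, had its lowest mean in WT and its highest in DM. Its mean was 11.2 counts in WT, 32.4 in *Kdm5c*-KO, 25.8 in *Kmt2a*-HET and 48.6 in DM. The *Kdm5c* term was called (DESeq2, log2 fold change 1.17, adjusted *p* = 4.03e-05) and the *Kmt2a* term was not (log2 fold change 0.84, adjusted *p* = 1). Whether the counting used strand is not given in the sources used here, so reads from *Cercam* and its antisense transcript cannot be told apart.

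*Cdh1*, which encodes E-cadherin, a junction protein of epithelia, depended on 1 library. Its counts were 42.5, 34, 30.2 and 35.4 in WT, 24.9, 20.6, 23.2 and 28.6 in *Kdm5c*-KO and 88.5, 68.9, 65.6 and 55.6 in *Kmt2a*-HET. In DM they were 59.1, 84.7, 6.96 and 62.5. All 1-copy libraries but DM3 stood above every 2-copy library, and DM3 stood below every one. The log2 fold change was 1.05 (DESeq2, adjusted *p* = 1), and without DM3 it was 1.21 (DESeq2, adjusted *p* = 1.41e-06). DM3 also had the lowest summed level of leptomeningeal genes of all 16 libraries (180 CPM), and 4 genes of that list were called together with *Cdh1* without DM3. That list was drawn up after values of these data had been seen. The part of leptomeningeal tissue in the *Cdh1* values was not tested.

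**Figure D2:**
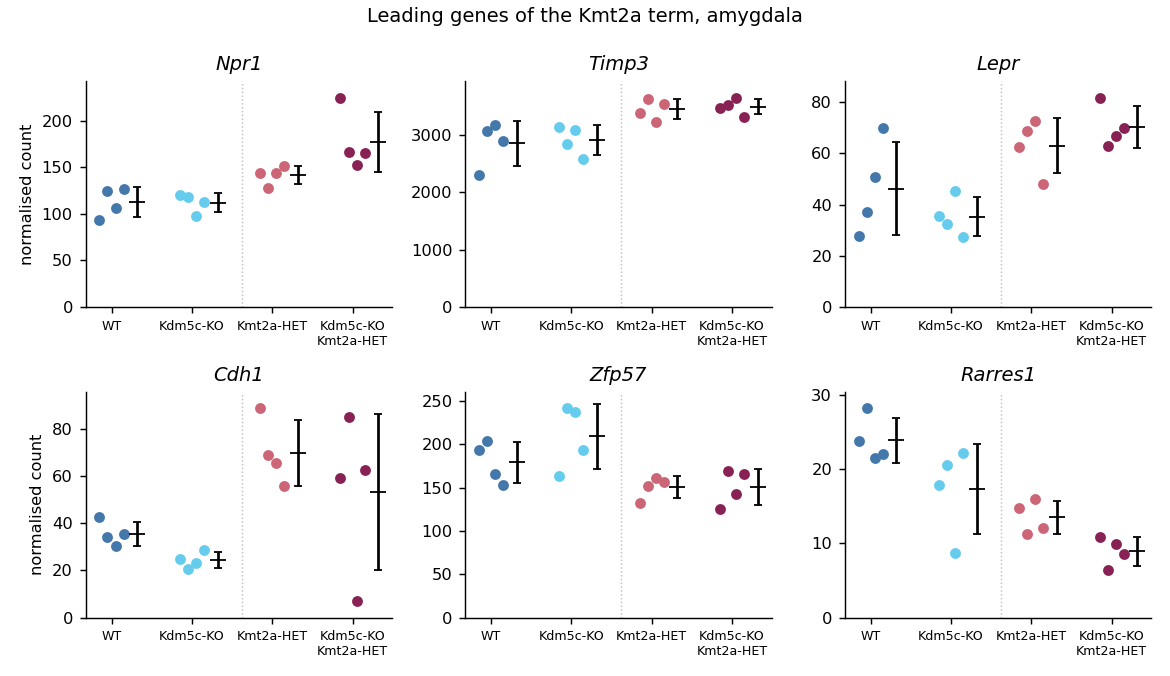
Normalised counts (y axis, from 0) of 6 leading genes in each amygdala library, 4 mice per genotype (points, in order of number), with the mean and SD at the right of each group; the dotted line separates 2-copy (left) from 1-copy libraries (right). Npr1 and Timp3 do not overlap across the line, and Cdh1 has 1 DM library, at 6.96, far below the other 1-copy libraries.

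The lower genes overlapped between the groups in every case. *Zfp57*, a KRAB zinc finger gene that maintains imprinted methylation, was the most abundant of the 12. Its counts were 153 at the lowest, 193.7 at the median and 241.2 at the highest with 2 copies and 125, 154.5 and 169.5 with 1 copy, and 4 of 8 1-copy libraries lay below all 2-copy libraries (DESeq2, log2 fold change -0.37, standard error 0.113, adjusted *p* = 1). In the hippocampus of the same mice *Zfp57* had 142.2 ± 37.1 and 93.7 ± 21.8 counts (n = 8 each, DESeq2, log2 fold change -0.60, adjusted *p* = 0.146).

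*Pus10*, a pseudouridine synthase gene, had 176.4 ± 12.8 counts with 2 copies and 143.3 ± 17.3 with 1 copy. DM2, at 178.6, was the only 1-copy library above 161.2. *Rarres1*, a retinoic acid responsive gene, had 20.6 ± 5.63 and 11.2 ± 3.11 counts (log2 fold change -0.88), and *Nfkbid*, a nuclear regulator of NF-kappa-B, 42.7 ± 16.7 and 24.5 ± 5.85 (log2 fold change -0.80). *Catsperg1*, a subunit of the sperm calcium channel, had 32.9 ± 6.63 and 19.9 ± 6.57 (log2 fold change -0.73). The other 6 lower genes without an established role, *4930429F24Rik*, *Gm27000*, *Gm30015*, *Gm37861*, *Gm45183* and *C230031I18Rik*, and the read-through model *Gm43064*, had means of 34 counts or fewer in both groups.

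The other writers and erasers of the mark did not pass the test. Of 21 genes of the H3K4 methyltransferase complexes, 0 were called and 0 had an unadjusted *p* under 0.05, and their median log2 fold change was -0.01 against -0.01 for all genes tested. The median was 0.02 in *Kmt2a*-HET against WT (13 of 21 higher) and -0.08 in DM against *Kdm5c*-KO (5 of 21). *Kmt2b*, the closest relative of *Kmt2a*, had 2277 and 2268 counts (log2 fold change -0.01, standard error 0.0959), and *Kmt2d*, 6159 and 5820 (log2 fold change -0.08, standard error 0.175). The shared subunits *Wdr5* (log2 fold change -0.04), *Rbbp5* (0.01), *Ash2l* (-0.06) and *Dpy30* (-0.04) and the KMT2A partner *Men1* (-0.02) lay within 0.1 of no change. All 6 H3K4 demethylase genes had estimates between -0.04 and 0.11, and none had an unadjusted *p* under 0.05.

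*Hox* and *Meis* genes are the classical targets of KMT2A in development and leukaemia. In this tissue 23 of the 46 *Hox*, *Meis* and *Pbx* genes in the table had counts and could be tested, 10 higher and 13 lower, and 0 had an unadjusted *p* under 0.05. Their median standard error was 3.04 on the log2 scale, against 0.32 for all genes tested. For many of them the test could therefore not decide whether a change was present. *Meis1*, at 208 and 192.6 counts, had a log2 fold change of -0.11 with a standard error of 0.1.

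Neuronal lists held 0 called genes and their medians were small. Of 34 glutamatergic synapse genes 0 were called, 23 were lower and 2 had an unadjusted *p* under 0.05, both lower, with a median log2 fold change of -0.05. One of these was *Grin1*, the obligatory NMDA receptor subunit (14530 and 13380 counts, log2 fold change -0.12). Of 8 genes of excitatory amygdala neurons 7 were lower, with a median of -0.19 and 0 at an unadjusted *p* under 0.05, and *Slc17a7*, the cortical type vesicular glutamate transporter, had 19700 and 16620 counts (log2 fold change -0.22, standard error 0.266). WT1 had the highest sum of this list (2305 CPM, against 568.9 to 1304 CPM in the other 15 libraries), and without it the median was -0.04. The median was -0.44 in *Kmt2a*-HET against WT and -0.02 in DM against *Kdm5c*-KO. GABAergic genes (27 genes, median 0.00), activity-induced genes (20 genes, median 0.08) and genes of the central amygdala (10 genes, median -0.04) also had 0 members at an unadjusted *p* under 0.05. The activity-induced median depended on the libraries kept. It was 0.22 without WT1 and -0.22 without DM1 and DM3 together, where 1 of 20 genes was higher against 13 of 20 with all libraries. It was -0.15 in *Kmt2a*-HET against WT and 0.19 in DM against *Kdm5c*-KO. Markers of the central amygdala were present in every library. Their list summed to 503.3 to 968.4 CPM, against 143.6 to 416.8 CPM in the hippocampal libraries. Its median was 0.07 in *Kmt2a*-HET against WT (5 of 10 higher) and -0.23 in DM against *Kdm5c*-KO (3 of 10).

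Glial lists leaned upward without a call. All 13 oligodendrocyte genes were higher in the 1-copy libraries, with a median log2 fold change of 0.31, and 3 had an unadjusted *p* under 0.05. *Mog*, a myelin surface glycoprotein, had 912.3 and 1151 counts (log2 fold change 0.34), and *Mobp*, a basic protein of myelin, had 14310 and 18350 (0.36). The lineage factors *Olig1* (0.07) and *Olig2* (0.00) were nearly level. The summed list ran from 2599 to 6294 CPM with 2 copies and from 4430 to 7552 CPM with 1 copy, and the lowest library was WT1. Without WT1 the median was 0.19, and without DM1 and DM3 it was 0.20 with 0 genes at an unadjusted *p* under 0.05. In bulk tissue, more cells of a type and more RNA per cell cannot be told apart. All 10 astrocyte genes were higher with a median of 0.06, of which *Gfap* had an unadjusted *p* under 0.05 (log2 fold change 0.24), while 12 microglial genes split evenly. The *Gfap* estimate was 0.45 in *Kmt2a*-HET against WT and 0.02 in DM against *Kdm5c*-KO.

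Genes of the choroid plexus, the epithelium that secretes cerebrospinal fluid in the ventricles, stood far apart in 2 libraries. Their sum was 1969 CPM in DM1 and 384.8 CPM in DM3, and 52.2 to 88.3 CPM in the other 14 libraries of both groups. All 12 genes of the list were higher and 7 had an unadjusted *p* under 0.05, with a median log2 fold change of 1.63. *Ttr*, the thyroid hormone carrier, had the largest estimate (256.7 and 5309 counts, log2 fold change 2.62) and *Kcnj13*, a potassium channel, the smallest *p* (19.6 and 70.9 counts, 1.52). Without DM1 and DM3 the median was 0.06, 6 of 12 genes were higher and 0 had an unadjusted *p* under 0.05. Leaving out these 2 libraries was decided after their values had been seen. All 8 ependymal genes were higher (median 0.50, 2 at an unadjusted *p* under 0.05), and without DM1 and DM3 the median was 0.28 with 7 of 8 higher.

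Leptomeningeal genes were higher in most 1-copy libraries. The list of 22 was drawn up after values of these data had been seen. Neither its direction, nor its share of small *p*-values, nor its overlap with called genes is therefore independent evidence. Its sum was 346.6, 303.3, 207 and 261 CPM in WT and 290.5, 282.2, 221 and 241.2 CPM in *Kdm5c*-KO. It was 404.9, 353.7, 315.7 and 339.2 CPM in *Kmt2a*-HET and 516, 362.9, 180 and 434.5 CPM in DM. DM3 had the lowest sum of all 16 libraries, and 5 of the other 7 1-copy libraries exceeded every 2-copy library.

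All 22 genes had a positive estimate, and the median log2 fold change was 0.38, against -0.01 for all genes tested. An unadjusted *p* under 0.05 was reached by 9 (40.9%). That compares with 1.84% of all genes higher at that level, and 2.78% of those with a mean count of at least 10. They included *Igf2*, a growth factor made by meninges and choroid plexus (1315 and 2007 counts, 0.61), *Slc13a4*, a sulfate transporter (336.1 and 554.2 counts, 0.72), the collagen gene *Col1a2* (437.1 and 574.1 counts, 0.39) and the proteoglycan genes *Bgn* (0.40), *Ogn* (0.65) and *Dcn* (0.41). Without DM3, DESeq2 called 11 of 30158 genes (0.0365% called), all higher, 4 of them on the list (*Slc13a4*, *Fmod*, *Col1a2*, *Slc47a1*). The other 7 were *Cdh1*, *Slc13a3*, *Aebp1*, *Prg4*, *Slc6a20a*, *Dcdc5* and *Npr1*. Without DM1 and DM3 it called 13 of 30030 (0.0433% called), all higher, with a list median of 0.49. Again 4 were on the list, with *Aldh1a2* in place of *Slc47a1*. The 13 include *Gm43106* and *Ccl27b*, with mean counts of 1.15 and 0.78, for which no fold is given. The part of the amount of leptomeninges in a dissected piece in these differences was not tested. In the hippocampus of the same mice the median of the list was -0.15, with 6 of 22 genes higher. There *Kdm5c*-KO 1 had the highest leptomeningeal sum (771.6 CPM, against 123.2 to 321.7 CPM in the other 15 libraries) and the highest choroid plexus sum (4885 CPM), and without it the median was 0.05 with 13 of 22 higher. That library was left out after its values had been seen.

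**Figure D3:**
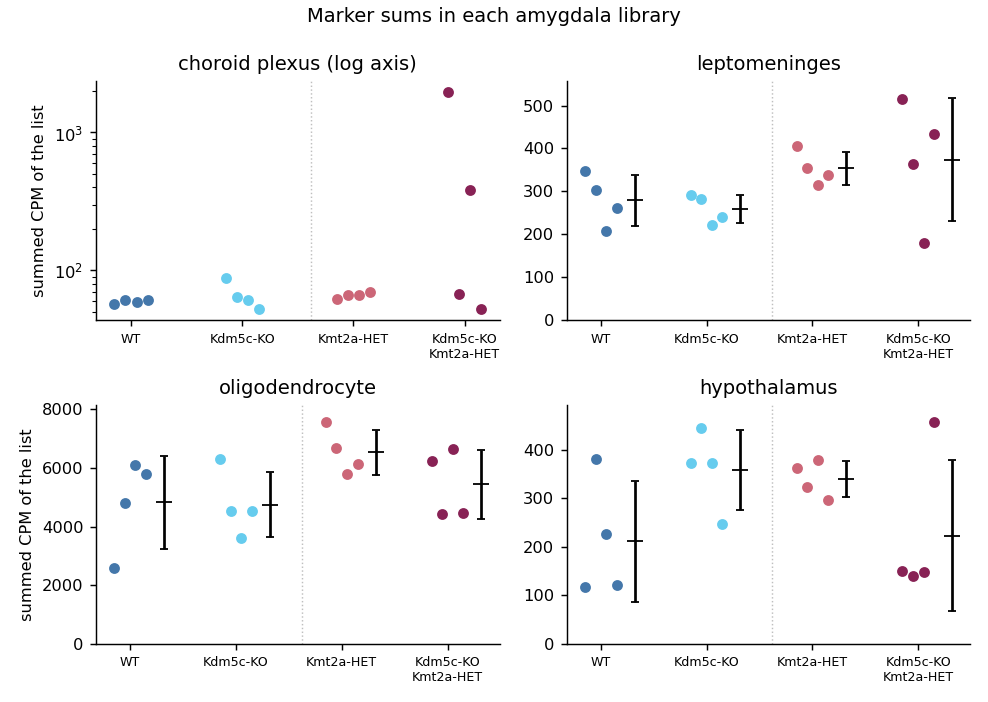
Summed CPM of 4 marker lists in each amygdala library (points, 4 mice per genotype in order of number; mean and SD at the right of each group except for choroid plexus, which has a log axis). DM1 and DM3 stand at 1969 and 384.8 CPM of choroid plexus genes, and DM3 has the lowest leptomeningeal sum, 180 CPM.

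The remaining lists held 0 called genes. Markers of neighbouring brain regions gave medians of 0.02 for 14 striatal genes, 0.39 for 5 thalamic genes (all higher), 0.19 for 8 hippocampal genes and -0.32 for 6 pituitary genes, and only *Lct*, the lactase gene, had an unadjusted *p* under 0.05 (39.4 and 21.9 counts, log2 fold change -0.86). Without DM1 and DM3 the thalamic median was 0.21, the hippocampal one -0.06, the pituitary one -0.05 and the striatal one -0.04. Without WT1 they were 0.21, 0.11, -0.48 and -0.08. The pooled striatal and pituitary medians joined component estimates of opposite sign. Striatal genes had a median of -0.27 in *Kmt2a*-HET against WT (2 of 14 higher) and 0.36 in DM against *Kdm5c*-KO (12 of 14), and pituitary genes 0.52 (6 of 6 higher) and -1.03 (0 of 6). Endothelial (11 genes, 0.06) and blood genes (5 genes, -0.07) had small pooled medians, again from components of opposite sign. They were -0.10 (2 of 11 higher) and 0.11 (8 of 11) for endothelial genes and -0.25 (0 of 5) and 0.12 (5 of 5) for blood genes, in *Kmt2a*-HET against WT and in DM against *Kdm5c*-KO. The blood median was 0.12 without WT1 and -0.19 without DM1 and DM3, and the endothelial one 0.06 and 0.01. Germline genes, which *Kdm5c* loss derepresses in brain, had a median of -0.20 over 17 genes with 0 at an unadjusted *p* under 0.05, and their sum was 11.2 to 13.2 CPM in WT, 9.14 to 10.6 in *Kmt2a*-HET, 23.4 to 28.5 in *Kdm5c*-KO and 23.3 to 29.8 in DM. The germline sum separated all libraries by *Kdm5c* status. Every *Kmt2a*-HET library lay below every WT library, while *Kdm5c*-KO and DM overlapped.

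Of 16 circadian genes 14 were higher, with a median of 0.07, and *Bhlhe41* had an unadjusted *p* under 0.05 (1762 and 2006 counts, log2 fold change 0.19). Of 11 glucocorticoid response genes (median 0.02) 2 did, *Pdk4* (171.5 and 211.4 counts, 0.30) and *Plin4* (93.1 and 125.4 counts, 0.51), and without DM1 and DM3 0 of either list were higher at that level. Without WT1 the glucocorticoid median was 0.12 and the circadian one 0.04. Respiratory chain genes (82 genes, median -0.01) and cytosolic ribosomal protein genes (84 genes, median -0.02) had medians near 0, which were 0.04 and 0.07 without WT1. The ribosomal sum was highest in the library numbered 1 of each genotype, 21090 CPM in WT, 19660 in *Kdm5c*-KO, 17180 in *Kmt2a*-HET and 17440 in DM, against 13050 to 15980 CPM in the other 12.

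Genes near *Kmt2a*, where an F1 mouse with the mutant allele can carry flanking DNA of the targeted chromosome, were examined as a separate group. The group was limited to genes with a mean count of at least 10. Of 184 tested genes within 10 Mb of *Kmt2a* on chromosome 9, 6 were higher and 2 lower at an unadjusted *p* under 0.05, and 0 were called. These shares were 3.26% and 1.09%, against 2.78% and 1.54% of all genes with a mean of at least 10. Without DM1 and DM3, 1 of the 184 was higher at that level, against 281 of 16648 genes with a mean of at least 10. With all libraries the smallest *p* values were those of the choroid plexus gene *Mfrp* (log2 fold change 2.17), the adhesion gene *Mpzl2* (0.68) and the retinoic acid binding protein gene *Crabp1* (-0.39). By gene length, protein-coding genes with a mean of at least 10 counts differed little. The median log2 fold change was -0.02 in the shortest of 4 equal bins (3659 genes up to 10550 bases) and 0.00 in the longest (3659 genes of 62564 bases or more).

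The factor joins 2 comparisons that share no library, *Kmt2a*-HET against WT and DM against *Kdm5c*-KO. At an unadjusted *p* under 0.005, the threshold the study used for *Kmt2a*-HET, 61 of 28577 genes (0.213%) were chosen in the first and 69 of 28505 (0.242%) in the second. At an adjusted *p* under 0.1, DESeq2 called 2 genes in the first (0.007%) and 0 in the second (0%, with 707 genes at an unadjusted *p* under 0.05). Of 60 genes chosen in mice with *Kdm5c* and measured in both, 33 (55%) had the same sign in mice without it. Of 69 genes chosen in mice without *Kdm5c*, 31 (44.9%) had the same sign in mice with it. In each direction 1 of these genes also had an unadjusted *p* under 0.05 and the same sign in the other comparison. Over 12127 genes with a mean of at least 100 counts, 49.8% had the same sign and the Pearson correlation of the log2 fold changes across genes was 0.00, a description only since genes are not independent.

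**Figure D4:**
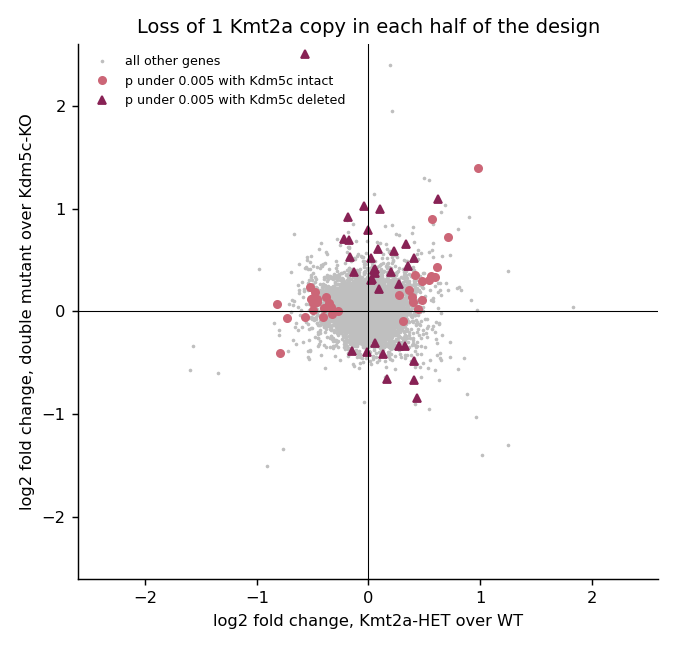
Log2 fold change for the loss of 1 Kmt2a copy with Kdm5c intact (x axis, Kmt2a-HET over WT) and with Kdm5c deleted (y axis, DM over Kdm5c-KO) for 12127 genes with a mean count of at least 100 (grey; values past 2.5 are drawn at 2.5). Genes with p under 0.005 on the x axis (36 circles) and on the y axis (34 triangles) lie along their own axis rather than along the diagonal.

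The 2 genes called in the first comparison were *Yy2* and *Filip1*, and neither was called in the second. *Yy2*, an X-linked zinc finger gene that overlaps *Mbtps2* and is closely related to *Yy1*, so that its counts are uncertain, had 29.7, 34, 17.3 and 9.56 counts in WT and 0 in all 4 *Kmt2a*-HET libraries (DESeq2, adjusted *p* = 7.91e-05). The *Kdm5c*-KO libraries held 26.1, 0, 20.3 and 20.1 counts, and the DM libraries 19.7, 33.7, 27.9 and 0, so single libraries at 0 occurred in the other genotypes as well. *Filip1*, a filamin-interacting gene, had 933.2 counts in WT and 563.2 in *Kmt2a*-HET (DESeq2, log2 fold change -0.73, adjusted *p* = 0.0635), whereas *Kdm5c*-KO had 801 and DM 768.3 (log2 fold change -0.06). The interaction was not called for *Yy2* (adjusted *p* = 0.189) or *Filip1* (adjusted *p* = 1).

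The interaction term tests whether the *Kmt2a* effect differed with *Kdm5c* status. It called 1 of 30355 genes (0.00329% called), the homeobox gene *Hmx2*, which is known from the hypothalamus and inner ear. *Hmx2* had 0, 8.74, 5.39 and 1.91 counts in WT and 26, 23.7, 21.3 and 25 in *Kmt2a*-HET. The *Kdm5c*-KO libraries held 26.1, 29.4, 40.6 and 10.6 counts, and the DM libraries 6.89, 11.8, 0.995 and 14 (DESeq2, interaction of -4.25 on the log2 scale, adjusted *p* = 0.0429, with 0 genes called by edgeR and 665 at an unadjusted *p* under 0.05). WT averaged 4.01 ± 3.86 counts and DM 8.43 ± 5.78, against 24 ± 2.05 for *Kmt2a*-HET and 26.7 ± 12.4 for *Kdm5c*-KO (SD, n = 4 each). The call depended on the libraries. *Hmx2* was called in 6 of the 16 fits that left out 1 library and not in 10 (WT3, WT4, *Kdm5c*-KO 1, 2 and 3, each *Kmt2a*-HET library and DM1), where the adjusted *p* by DESeq2 reached 0.649, nor with ERCC size factors, while the estimate stayed between -5.00 and -3.84 in all 16. *Kmt2a*-HET lay wholly above WT, whereas the lowest *Kdm5c*-KO library lay below 2 DM libraries. *Hmx2* was listed at 0 in all hippocampal libraries. Of the 15 hypothalamic markers, which include *Hmx2*, 0 were called for the *Kmt2a* factor, and the interaction of the list was not tested. By estimate all 15 were higher in *Kmt2a*-HET than in WT (median log2 fold change 0.89), and 1 of 15 was higher in DM than in *Kdm5c*-KO (median -0.67). Their sum was 116.5 to 381.7 CPM in WT, 246.7 to 444.8 in *Kdm5c*-KO, 296.8 to 378.1 in *Kmt2a*-HET and 139.3 to 456.4 in DM. The part of hypothalamic tissue in the *Hmx2* result was not tested.

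**Figure D5:**
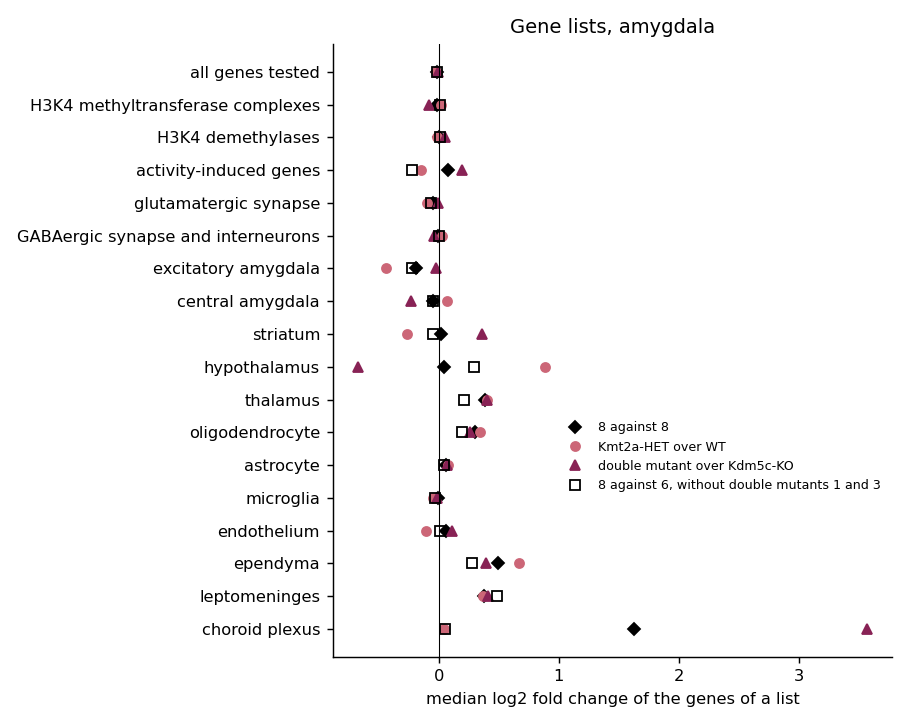
Median log2 fold change (x axis) of the genes of each list for the 8 against 8 comparison (diamonds), each of its 2 component comparisons (circles and triangles) and the comparison without DM1 and DM3 (open squares). The choroid plexus median is 1.63 with all libraries and 0.06 without DM1 and DM3, and the hypothalamus, striatum and activity-induced lists are among those with opposite signs in the 2 component comparisons.

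The same contrast in the hippocampus of the same mice called 20 of 29820 genes (0.0671% called), 6 higher and 14 lower. That difference between the regions was tested directly in a fit of all 32 libraries. The test of the *Kmt2a* effect in hippocampus minus amygdala called 3 of 32034 genes (0.00937% called), all lower, and 0 with the mouse as a block (1158 genes at an unadjusted *p* under 0.05) or by edgeR (699 genes). The 3 genes were *Cd44*, *Dmrt3* and *Gm26778*. *Cd44*, a hyaluronan receptor of astrocytes and immune cells, averaged 73.3 ± 16.3 (2-copy) and 84.1 ± 17.8 counts (1-copy) in amygdala, while the hippocampal means were 79 ± 29.8 and 40.9 ± 9.82 (n = 8 each), a difference of -1.14 (DESeq2, adjusted *p* = 0.0939, with the mouse as a block 0.342). *Dmrt3* had 0 to 1.06 counts in the 2-copy amygdala libraries and 36.4 in DM1 and 17.9 in DM3 against 0 to 2.66 in the other 6 1-copy libraries (adjusted *p* = 0.0939, with the block 0.88). DM1 and DM3 are also the libraries with the highest choroid plexus sums. *Gm26778* was at 0 in 12 amygdala libraries and in all 8 1-copy hippocampal libraries, so no fold is given. In the hippocampus *Kdm5c*-KO 2 alone had counts of it (140.5), and all other 2-copy libraries were at 0 too. None of the 24 leading amygdala genes was called in the hippocampus. Their hippocampal log2 fold changes ran from -1.10 for *Gm30015* to 0.59 for *RF01953*, with -0.60 for *Zfp57*, -0.20 for *Npr1*, 0.04 for *Timp3* and -0.35 for *Cdh1*. Hippocampal *Lepr*, *Acacb* and *Timp3* were highest in *Kdm5c*-KO 1, DM4 and DM2, which had the highest choroid plexus sums (4885, 1271 and 1216 CPM). *Kdm5c*-KO 4, at 1184 CPM, did not share these levels (*Lepr* 58.7 counts, against 86.1 in DM2). The pattern held for none of the other higher leading genes, and its cause was not tested.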

How the data were processed

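RNA-seq of 16 amygdala and 16 hippocampal libraries was analysed from the authors' deposited gene tables, whose values are expected counts per gene, not normalised. Per the labels and the study's methods, a strand-specific kit with oligo-dT priming and ERCC spike-ins was used, and reads were mapped to mm10 with STAR 2.5.3a and deduplicated; read counting is described with featureCounts of Subread 1.5.0, so the estimator behind the expected counts is not given in the sources used here, nor is strand use. Transcript expected counts of the amygdala, also deposited, served for *Kmt2a* only. Counts were rounded. Of 53715 genes, 53620 had a GENCODE M21 symbol by gene ID without version, and 92 ERCC rows were left out of tests.

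DESeq2 1.42.0 (R 4.3.3) fitted terms for *Kdm5c* and *Kmt2a* to 16 libraries by the Wald test, with adjusted *p* under 0.1 as the call and unshrunken log2 fold changes. For 44 genes the outlier filter gave no *p*. Normalised counts use its size factors. Separate fits gave the interaction, the region difference (32 libraries) and the component comparisons. edgeR 4.0.16, other size factors (TMM, ERCC), a filter of 10 counts in 4 libraries, a replicate block, a term for libraries numbered 1 and leaving out libraries were alternatives. Scripts were tested on simulated counts. The amygdala and hippocampal libraries of 1 mouse share an animal code (median correlation of deviations 0.174, 14 of 16 mice over 0.1), so the mouse pairs them. Named genes were *Kmt2a* and *Kdm5c*, the 12 higher and 12 lower with the smallest *p*, called genes of the interaction and the region difference, and up to 3 members per list, with exceptions stated; single values of a few such genes are not reported here. Lists were described by counts and medians. Libraries, lists and members were chosen with earlier results of these data known. Replicates differed by more than sampling noise (chi-square per gene at least 3.89 in 24 pairs). A check of promoter CpG content was void, since 77.9% of 14636 genes had a promoter in the reference table, under the 80% required.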

Additional observations from a re-analysis of the deposited data

Results flagged for a closer look

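In 8 of 104 groups of 4 libraries (26 genes in 4 genotypes), 1 library lay far from the other 3 by Dixon's criterion, which chance does in about 1 of 20 groups. *Kdm5c* was at 1434 counts in *Kdm5c*-KO 3 against 1248 to 1268 in the others. *2600006K01Rik* was at 33.7 in *Kmt2a*-HET 3 (others 22.2 to 23.7), and *Acacb* at 153.3 in WT1 (others 244.7 to 259.8). *Catsperg1* was at 22.8 in WT1 (others 30.1 to 31.6), *RF01953* at 17.3 in DM2 (others 8.61 to 9.95) and *Gm27000* at 15.1 in DM4 (others 4.56 to 5.97). *Pus10* was at 178.6 in DM2 (others 132.3 to 138.9) and *Gm30015* at 4.97 in DM3 (others 1.82 to 2.15). Leaving out WT1 and each of the other libraries in turn kept the sign of every one of these genes except *Kdm5c*.

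4 differences between groups passed a DESeq2 test of the difference itself, none of them by edgeR, and the 3 between regions not with the mouse as a block. The *Kmt2a* effect on *Hmx2* differed with *Kdm5c* status by -4.25 on the log2 scale. Between hippocampus and amygdala it differed by -1.14 for *Cd44*, by -4.56 for *Dmrt3* and by -30 for *Gm26778*, a value set by libraries at 0 that gives no fold and rests in the hippocampus on *Kdm5c*-KO 2 alone. The cause of these differences was not tested.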

How the results depend on the processing

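The count of genes called for the *Kmt2a* factor was 0 in 20 of 30 alternatives. It was 1 without the outlier filter (*Gm26723*) and with a term for libraries numbered 1 (*Stra6*), 4 without all libraries numbered 1, 13 without DM1 and DM3, and 0 to 11 without 1 library, the highest without DM3. It was 1 without WT3, 3 without WT4 (*Tln1*, *Lepr*, *Npr1*) and 3 without *Kdm5c*-KO 1 (*Pdlim2*, *Apod*, *Gss*). The replicate number marks no shared litter or day in the labels. The libraries numbered 1 came from mice with animal codes lower than all other numeric codes, and *Kdm5c*-KO 4 and DM4 had codes of another form. What the codes stand for is not given. Of 24 same-numbered pairs of libraries 13 correlated over 0.1 (range -0.497 to 0.574), with 8 of 16 libraries correlating best with their own number. With the replicate block 7 genes were called, 5 higher and 2 lower, among them *Stra6*, *Igf2*, *Lbp* and *Gm1821*, with the block and the low-count filter 6, and with the block in edgeR 0. The 7 include *Gm42417* and *Gm35934*, with mean counts of 0.72 and 0.75, for which no fold is given.

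The interaction count of 1 became 83 with the replicate block, 3 with the block and filter, 0 with the block in edgeR, 26 with the term for libraries numbered 1, 2 without those libraries or without the outlier filter, and 0 by edgeR, with ERCC size factors or without DM1 and DM3. Without 1 library it was 0 to 68, the highest without WT2, and 0 in 9 of 16 such fits. The region count of 3 became 0 by edgeR and in each fit with the mouse as a replicate block (with the filter and in edgeR too), 1 at an adjusted *p* under 0.05 and 51 with the term for libraries numbered 1. The *Kdm5c* count of 342 was 220 by edgeR, 43 with ERCC size factors and 264 to 614 without 1 library, the highest without WT1. For these counts the cause was not tested.

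The *Kmt2a* log2 fold change of -0.0386 ranged without 1 library from -0.142 (WT1) to 0.0365 (WT4) and was also above 0 without *Kdm5c*-KO 3 (0.0172), DM1 (0.0248) or DM1 and DM3 (0.0381), and that of *Kdm5c* ranged without 1 library from -0.0857 (WT1) to 0.0247 (WT4), and was -0.116 without all libraries numbered 1. The 24 leading genes kept their sign under all alternatives that gave a value. The choroid plexus median was 0.60 without DM1 and 0.74 without the *Kdm5c* term. Same-sign shares at thresholds of 0.01 and 0.05 were 50% to 52.4%. What depth limits was not tested by thinning, and genes under 10 counts rest on few reads.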
